A study of Mus musculus with 25 samples.

Results

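Liver tumors of mice without Mcl-1 in their hepatocytes were compared between animals killed at 12 months and at 8 months of age. All arrays of tumor tissue in the series were used, 4 from animals of 12 months (animals 1109, 638, 702 and 793) and 3 from animals of 8 months (1347, 1287 and 934), which makes 7 of its 25 arrays. The 12-month and 8-month groups share the knockout genotype (Mcl-1 ko), the tissue label of hepatocellular carcinoma and the lack of any treatment, and differ in age. The 7 non-tumor samples of the same animals are used beside them, 4 of 12 months and 3 of 8 months. No wild-type animal of 8 months is among the samples. The ages come from different animals, and no slide held tumors of both ages. Age in the tumors thus cannot be told apart from slide or from any other difference between these 7 animals. The labels do not give the sex of the animals, the promoter that drives the deletion, the part of the gene that was removed, or whether a tumor sample was 1 nodule or several, and full homogenates were used, so each sample holds all cell types of the tissue.

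Mcl-1 is an anti-apoptotic protein of the BCL-2 family that holds the effectors BAX and BAK in check at the mitochondrion. Hepatocytes that lack it die at a raised rate, and the loss is met by regeneration, so that divisions accumulate in a liver that is continually injured. Such livers form tumors with time, and liver cancers of this kind are known to switch on fetal genes such as alpha-fetoprotein, to differ in whether the WNT/beta-catenin pathway is active, and to differ from one nodule to the next within a single animal.

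Levels below are the log2 processed signal of a gene's probe minus the 75th percentile of its array, so that 0 is the 75th percentile and a difference of 1 is a doubling. Mcl1 itself stood at 2.96, 2.58 and 1.79 in the 8-month tumors 1347, 1287 and 934, and at 2.15, 1.46, 2.83 and 2.70 in the 12-month tumors 1109, 638, 702 and 793. The ages overlapped, with a difference (12 minus 8 months) of -0.15 (SE 0.44). Since the deleted part is not given, the probe does not show the deletion. The hepatocyte markers were bright in all 7 tumors, with Alb, the gene of serum albumin, between 9.10 and 10.09 and Hnf4a, a transcription factor that sets hepatocyte identity, between 3.16 and 3.77. Xist, the RNA that coats the silenced X chromosome, was detected in tumors 1347, 1287, 638 and 793 (levels -0.76, -1.78, -1.17 and -0.94), whereas the Y-linked helicase Ddx3y was at 2.12, 2.38 and 2.13 in tumors 934, 1109 and 702. By these genes both ages held animals of both sexes.

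The share of probes well above background was 68.3%, 62.1% and 62.2% in the 8-month tumors 1347, 1287 and 934, and 65.8%, 76.3%, 65.8% and 75.6% in the 12-month tumors 1109, 638, 702 and 793. Tumors 638 and 793 thus had more detectable probes than the other 5. The 7 tumors lay on 4 slides, each with tumors of 1 age. Slide thus cannot be told apart from age, and a random block for the slide does not separate them. With that block, too, no gene passed the threshold given below. Tumor 1347 alone was scanned on the second scan day.

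No gene differed between tumors of 12 and 8 months at an adjusted p under 0.05, that is 0 of 22890 genes tested (0%), in limma with Benjamini-Hochberg adjustment. The smallest adjusted p was 0.205. At an unadjusted p under 0.05 there were 755 genes with higher values at 12 months (3.3%) and 108 with lower values (0.472%), together 3.77% of the genes tested. The 3 and 4 values did not overlap in 692 genes in the higher direction (3.02%) and 229 in the lower (1%). The median standard error of a gene's difference was 0.395. Between tumors of 1 age the spread was wide: differences between the ages accounted for 13.8% of the sum of squares over all genes, and differences within an age for 86.2%, with 1 and 5 degrees of freedom. Gene by gene levels correlated at r = 0.921 to 0.971 between tumors of the same age and 0.941 to 0.967 between tumors of different age (across genes, which are not independent replicates).

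The surplus of higher over lower genes moved with the filter on dim genes, with the scaling and with 1 tumor. Of the genes at an unadjusted p under 0.05, 87.5% were higher at 12 months as reported, but 61.8% after quantile normalization, 51.5% after normexp background correction with quantile normalization, 50.9% in the series matrix values and 70.5% among genes above background in every tumor. Without tumor 1347 the share was 56%, with 842 higher and 661 lower genes. Genes above background on all 7 tumors had a median difference of 0.015, and those on 4 of the 7 a median of 0.496. A gene detected on only 3 or 4 arrays can have passed the filter through the 12-month tumors alone, so such genes are given as values only.

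**Figure D1:**
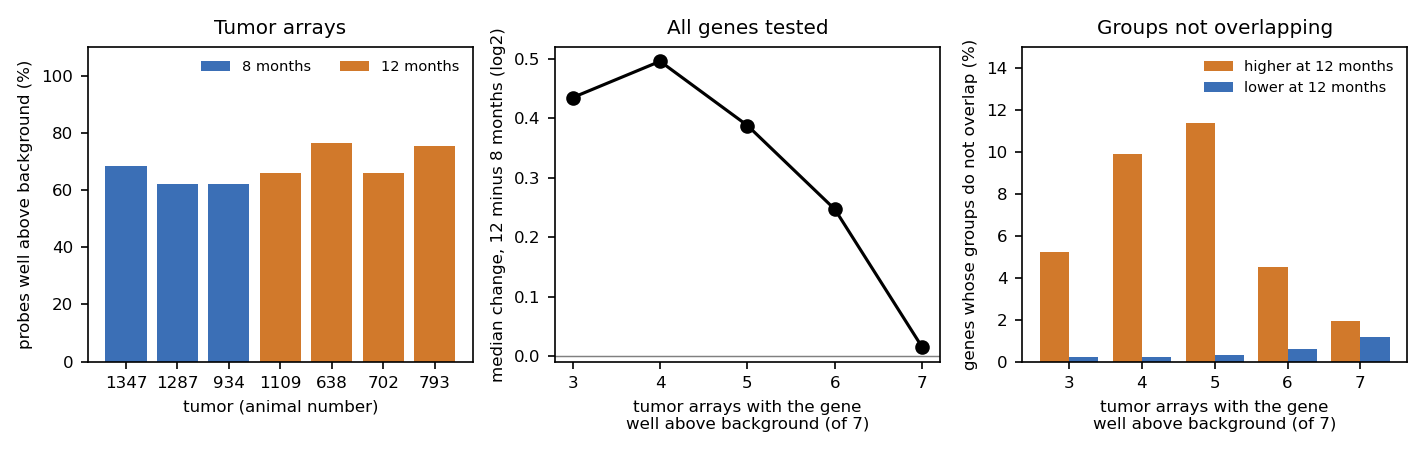
Left, percent of probes well above background on each tumor array, with tumors 638 and 793 the highest at 76.3% and 75.6%. Middle and right, genes grouped by the number of tumor arrays on which they were well above background, with the median difference (12 minus 8 months, log2) and the percent of genes whose groups did not overlap; the median falls from 0.496 at 4 arrays to 0.015 at 7.

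Among the 12 named genes with higher values at 12 months, Prrg4 had the smallest p. Prrg4 encodes a membrane protein with a Gla domain, the vitamin K-dependent module otherwise found in clotting factors. Its level was -4.11, -4.06 and -3.96 in the 8-month tumors 1347, 1287 and 934, and -1.72, -1.25, -1.70 and -1.29 in the 12-month tumors 1109, 638, 702 and 793. The ages were far apart for the spread within each, and the probe was above background in all 7 tumors. The difference was 2.55 (SE 0.27), with an unadjusted p of 1.0e-05 and an adjusted p of 0.205 in limma. Non-tumor tissue of the same animals was also apart, with levels of -4.86, -5.77 and -4.21 at 8 months against -1.26, -1.76, -1.65 and -0.64 at 12 months, a difference of 3.62 (SE 0.45). The probe was not well above background in the non-tumor sample of animal 1287. Except in animal 1347, the tumor and non-tumor sample of an animal lay on the same slide. The tissue by age term was -1.07 (SE 0.45), with an unadjusted p of 0.04661 and an adjusted p of 0.811 in limma.

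Levels of Prrg4 in the other 11 arrays of the series did not follow age. Wild-type liver of 12 months was at -3.37, 0.35 and -3.47, and knockout liver of 2 months at -5.30, -0.63 and 0.13. The low values thus occurred in animals of 2, 8 and 12 months. The low wild-type arrays lay on the same slide as tumor 1347 (-4.11), and the arrays at 0.35, -0.63 and 0.13 lay together on another. Slides that held only animals of 2 months ran from -3.47 to 0.29 and from -5.30 to -0.40. In the tumors, slide and age cannot be told apart. A second probe of Prrg4 was not well above background in any tumor and differed by 0.46 between the ages. Across 21 other settings the difference ran from 0.74, with normexp and quantile normalization, to 2.81. The smallest adjusted p in limma was 0.0622, with the slide as a random block. The correlation within slides was estimated at -0.266 in tumors, and the SE was 0.22 with that block against 0.27 without it. Each slide held tumors of 1 age, so that smaller p does not allow for slide.

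The other 11 genes higher at 12 months were dim. Cyp4f39, a member of the CYP4F family of fatty acid hydroxylases, was the only one of them above background in all 7 tumors, at -4.23, -3.85 and -3.75 against -2.60, -2.07, -2.59 and -2.57. Its difference was 1.48 (SE 0.28, adjusted p = 0.576 in limma). Zc3hav1l, related to the zinc finger antiviral protein, was at -6.22, -5.55 and -5.50 against -3.82, -3.08, -4.27 and -3.68, and 1 of the 3 tumors of 8 months was above background. Aipl1, a chaperone known from photoreceptors, was not well above background in any 8-month tumor and stood at -3.88, -3.59, -3.26 and -4.37 at 12 months. The thyroid hormone and anion transporter Slco1c1 was also not above background at 8 months. Over the other settings the difference of Aipl1 ran from 0.17 to 2.34, and that of Slco1c1 from 0.10 to 2.44. Taar2, Kcnu1, Olfr77 and Olfr148 were not above background at 8 months either. Their lowest differences over the other settings were 0.09, -0.008, 0.01 and 0.05. All of these passed the filter through the 12-month tumors alone, so their differences are given as values only.

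Many of these dim genes encode receptors of smell, taste or pheromones, and the group was noted only after its values were seen. Of the 12 genes named as higher, 5 belonged to it, namely Olfr148, Olfr1093, Taar2, Olfr996 and Olfr77, and so did 3 of the 12 named as lower, Vmn1r192, Olfr1140 and Olfr569. The array holds 1023 such genes, of which 424 passed the filter and 204 were above background in all 7 tumors. Among the 424, the median difference was 0.32, and 57 had non-overlapping groups in the higher direction and 6 in the lower, beside 3.02% and 1% of all genes tested. Among all genes above background on 4 or 5 of the 7 tumors, 9.88% and 11.4% were apart in the higher direction. Among those above background on all 7 it was 1.94%. The receptors were not set against genes of like detection, so whether their count is particular to them was not tested. Receptor families of this size have near-identical members, so a probe cannot be tied to 1 of them with certainty. Without tumors 638 and 793, which had the most detected probes, the differences of the 5 higher receptor genes were 1.48 to 2.01, against 1.67 to 1.94 with all 7 tumors. These 5 genes were named because the ages did not overlap, so a difference above 0 without tumors 638 and 793 was fixed in advance. Whether the share of detected probes bears on the receptor genes was not tested. Over all genes at an unadjusted p under 0.05, 59.4% were higher without these 2 tumors.

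**Figure D2:**
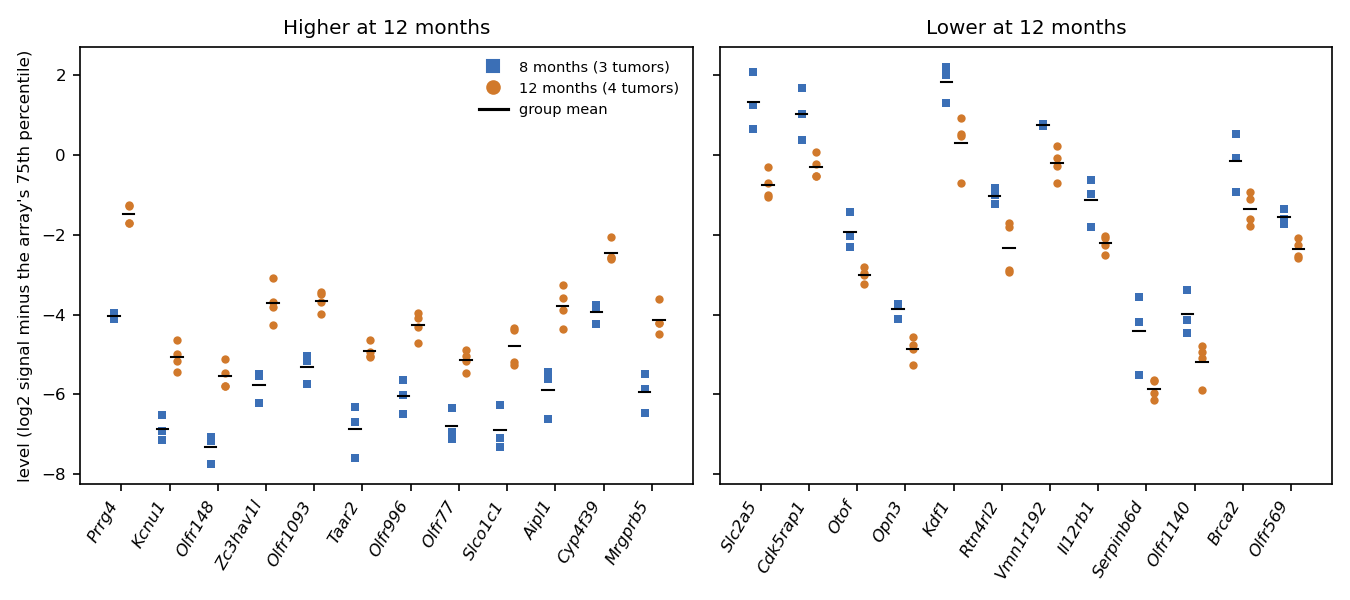
Levels (log2 signal minus the 75th percentile of the array) of the 12 named genes higher and the 12 lower at 12 months, with 1 point per tumor (squares, 3 tumors of 8 months; circles, 4 of 12 months) and a line at each group mean. The higher genes other than Prrg4 lie below -2, while Slc2a5, Cdk5rap1 and Kdf1 are among the brighter of the lower ones.

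Some of the genes lower at 12 months were bright, such as Slc2a5, Cdk5rap1 and Kdf1, while others, such as Opn3, Serpinb6d and Olfr1140, were dim. Slc2a5 encodes GLUT5, the fructose transporter. It stood at 1.25, 0.64 and 2.08 in the 8-month tumors 1347, 1287 and 934, and at -1.06, -0.31, -0.70 and -1.01 in the 12-month tumors 1109, 638, 702 and 793. The ages did not overlap, and the difference was -2.09 (SE 0.40, unadjusted p = 0.0006835, adjusted p = 0.576 in limma). The 21 other settings gave -2.44 to -1.36. In non-tumor tissue the values overlapped, at -1.18, 0.39 and 2.02 against 0.09, -0.74, -0.53 and -0.30, a difference of -0.78 (SE 0.67). The difference between the tissues in their age change was -1.32 (SE 0.65), which did not pass the threshold.

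Cdk5rap1, an enzyme that modifies mitochondrial transfer RNA, was at 1.66, 1.03 and 0.36 against -0.54, -0.23, -0.53 and 0.08. Its difference was -1.32 (SE 0.37), and it was -1.08 (SE 0.42) in non-tumor tissue. Kdf1, a regulator of keratinocyte proliferation, was at 1.30, 2.00 and 2.20 against -0.72, 0.48, 0.91 and 0.52, with a difference of -1.53 (SE 0.44). Here too the non-tumor samples overlapped, with a difference of -0.43 (SE 0.41). Il12rb1, a chain of the receptors for IL-12 and IL-23, was at -0.98, -1.80 and -0.63 against -2.52, -2.03, -2.08 and -2.26, a difference of -1.08 (SE 0.35). In non-tumor tissue its difference was 0.04 (SE 0.53).

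Brca2, which acts in the repair of broken DNA by homologous recombination, was at -0.93, -0.09 and 0.51 against -1.61, -1.79, -0.94 and -1.12. The groups just failed to overlap, with a difference of -1.20 (SE 0.41) in tumors and -1.23 (SE 0.41) in non-tumor tissue. A second and dimmer Brca2 probe went the other way, by 0.95, and was above background in 2 of 3 and 3 of 4 tumors. The remaining genes lower at 12 months were Otof, Opn3, Rtn4rl2, Vmn1r192, Serpinb6d, Olfr1140 and Olfr569, with differences between -1.43 and -0.80. Serpinb6d, at -1.43, was above background in 3 tumors of 8 months and 1 of 12 months, so its difference is given as a value only. With normexp and quantile normalization, Serpinb6d, Opn3 and Olfr1140 differed by -0.15, -0.12 and -0.14. Adjusted p-values in limma for all 12 lower genes lay between 0.576 and 0.9997. Of the 24 genes named in the 2 directions, 7 had several probes, and in 5 of these all probes had the same sign. Several of the further probes were near background, so their sign is given as a value only. The second probe of Otof differed by -0.01 and was above background in 0 tumors of 8 months and 1 of 12 months.

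Groups of genes were described by the counts and medians of 42 lists, beside a median difference over all genes of 0.055 and a difference above 0 in 55.7% of genes tested. The lists held 732 distinct genes tested, of which 18 (2.46%) were higher and 4 (0.546%) lower at an unadjusted p under 0.05. Those shares lie near the 3.3% and 0.472% over all genes. No member of any list passed the adjusted threshold.

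The S-phase and mitosis lists had medians on opposite sides of 0, though that of mitosis changed sign in some settings. The list of G1 cyclins, kinases and inhibitors had a median of 0.11, with 12 of 19 members above 0. Genes of S phase, which license and copy DNA, had lower means at 12 months in 24 of 28 members tested, with a median difference of -0.38. The median level of the list was 0.86, 0.69 and 1.30 in the 8-month tumors 1347, 1287 and 934, and 0.80, -0.20, 0.96 and 0.21 in the 12-month tumors 1109, 638, 702 and 793. Tumors 638 and 793 were thus the lowest and tumor 934 the highest, and the ages overlapped. Cdt1, which loads the replicative helicase on origins, was at 1.61, 1.48 and 3.53 against 0.88, -0.01, 1.62 and 0.76, a difference of -1.39 (SE 0.58, unadjusted p = 0.04312). The helicase subunits Mcm6 and Mcm4 differed by -1.07 (SE 0.52) and -1.01 (SE 0.49), and Pola1, the catalytic subunit of the polymerase that starts new strands, by -0.68 (SE 0.34). Non-tumor tissue gave a median of -0.47 for the same list. The sign held in all 21 other settings, between -0.62 and -0.14, the smallest being without tumor 934.

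Promoters of S-phase genes are textbook targets of the E2F transcription factors, and the stretches below show 4 members with a match to such a site. They are RefSeq promoters of assembly GRCm38.p6, and the capitals mark 8-base matches to TTTGGCGC, TTTCGCGC, TTTCCCGC or TTTGCCGC on either strand, overlapping where matches run together. Of the 28 S-phase genes tested, 24 had an entry, and 6 of these 24 (Cdc6, Mcm5, Mcm6, Mcm7, Pola1 and Rfc3) held such a match in the 250 bases before the start, or 25%. The same was true of 1.91% of all 27025 promoters and of 1 of 26 promoters of the mitosis list. A match describes letters only, and these data hold no measure of binding.
Mcm6, chr1:128359706-128359835, minus strand: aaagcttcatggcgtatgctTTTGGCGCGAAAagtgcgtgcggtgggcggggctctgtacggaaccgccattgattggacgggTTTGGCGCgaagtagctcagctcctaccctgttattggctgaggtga
Mcm5, chr8:75109329-75109448, plus strand: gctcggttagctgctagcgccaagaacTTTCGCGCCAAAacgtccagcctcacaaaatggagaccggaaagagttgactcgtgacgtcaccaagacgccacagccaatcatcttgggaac
Cdc6, chr11:98907971-98908090, plus strand: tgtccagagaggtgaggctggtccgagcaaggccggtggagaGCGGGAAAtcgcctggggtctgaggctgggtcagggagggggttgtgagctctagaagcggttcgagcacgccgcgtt
Pola1, chrX:93632216-93632335, minus strand: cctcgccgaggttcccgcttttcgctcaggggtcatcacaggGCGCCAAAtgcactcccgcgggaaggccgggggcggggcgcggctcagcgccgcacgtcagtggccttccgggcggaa

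Genes of mitosis and the spindle had higher means at 12 months in 30 of 31 members tested, with a median difference of 0.60, and none at an unadjusted p under 0.05. Their median level was -0.87, -0.94 and -2.66 at 8 months and -0.50, -1.97, 0.41 and -0.96 at 12 months. Tumor 934 was the lowest and tumor 702 the highest of the 7. Without tumor 934 the median difference was -0.05, and without tumor 702 it was 0.15. Among the 4 Xist-positive tumors it was -0.66. Top2a, a topoisomerase abundant in dividing cells, was at -2.34, -3.04 and -3.63 against -2.06, -2.94, -2.17 and -2.35. Nuf2, a kinetochore subunit, differed by 0.85 (SE 0.57) and Kif2c, a microtubule depolymerase, by 1.32 (SE 0.70).

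**Figure D3:**
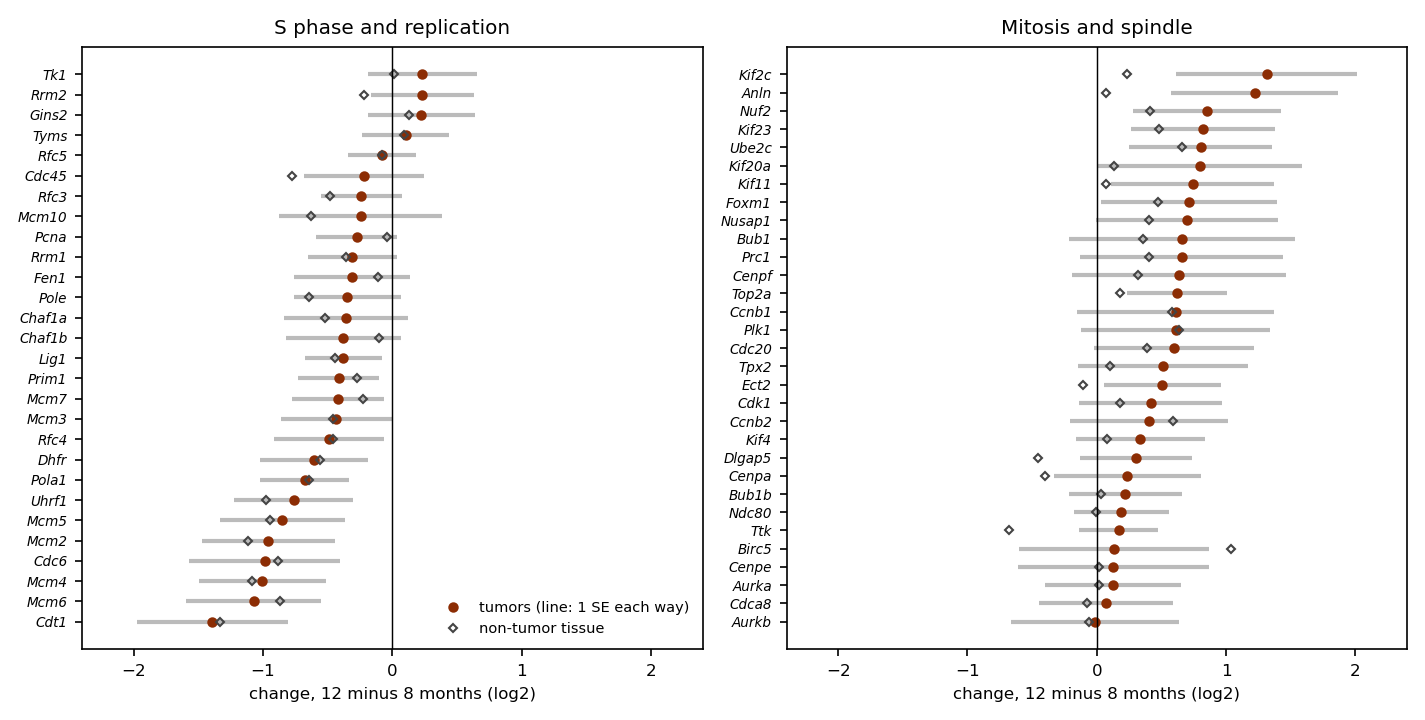
Difference between 12 and 8 months (log2) for each gene of the S-phase and mitosis lists, in tumors (filled circles, line of 1 SE each way) and in non-tumor tissue of the same animals (open diamonds). Of the S-phase genes 24 of 28 lie below 0 in tumors, and of the mitosis genes 30 of 31 lie above 0, with a median of 0.18 in non-tumor tissue.

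Among targets of p53, Gdf15, a stress cytokine, was at 2.60, 1.50 and 1.74 in the 8-month tumors and at 3.50, 4.82, 3.68 and 2.35 in the 12-month tumors. Tumor 793 fell inside the 8-month range, and the difference was 1.64 (SE 0.57, unadjusted p = 0.01956). Cdkn1a, the cell cycle inhibitor p21, was at 0.72, -0.66 and -1.60 against 1.24, 0.24, 1.56 and -0.39, a difference of 1.18 (SE 0.65). Over the p53 list the median was 0.22, but 0.05 without tumor 702 and -0.19 among the 4 Xist-positive tumors. The BCL-2 family had a median of 0.20 over 15 genes, and -0.07 without tumor 934. Its largest difference was that of Bmf, a BH3-only sensor, at -1.20 (SE 0.68). Death receptor and necroptosis genes had a median of -0.10, with Tnfsf10, the death ligand TRAIL, at -2.88, -2.65 and -2.77 against -4.96, -3.08, -3.17 and -3.45.

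The lists of NRF2 targets and hypoxia had medians above 0, with no gene past the adjusted threshold. The list of NRF2 targets, the antioxidant defence, had a median of 0.39, with 18 of 22 members above 0, against -0.16 in non-tumor tissue. Hmox1, which breaks down heme, was at 2.54, 2.34 and 1.60 against 2.76, 2.85, 3.19 and 2.76, groups that did not overlap, with a difference of 0.73 (SE 0.32). Gclc, the rate-limiting enzyme of glutathione synthesis, was also apart, at 5.08, 5.10 and 5.04 against 5.57, 5.41, 5.62 and 5.24. The hypoxia list had a median of 0.38, above 0 in 13 of 18 members. P4ha1, a collagen prolyl hydroxylase subunit, was at -0.90, -1.69 and -0.98 against 0.10, 0.13, -0.25 and -0.76, a difference of 0.995 (SE 0.35), while Car9, a carbonic anhydrase induced by hypoxia, went the other way by -1.12 (SE 0.49). Both lists kept their sign in the 21 other settings, from 0.07 to 0.57 and from 0.15 to 0.44.

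Of the unfolded protein and amino acid stress list, 16 of 25 members were above 0, with a median of 0.16. It was -0.01 without tumor 702 and -0.30 among the 4 Xist-positive tumors. Pdia4, a chaperone of the endoplasmic reticulum, was at 3.20, 3.42 and 3.27 against 3.65, 3.77, 4.21 and 4.12. The metallothioneins Mt1 and Mt2, which bind zinc and copper and are induced by metals and glucocorticoids, had lower means at 12 months. Mt1 was at 4.22, 4.11 and 6.22 against 2.86, 4.67, 2.91 and 2.46, and Mt2 at 4.15, 5.53 and 3.76 against 2.55, 4.09, 3.30 and 2.30. Tumor 638 overlapped the 8-month range for both. Their differences were -1.63 (SE 0.68) and -1.42 (SE 0.57) in tumors, and -2.42 and -1.76 in non-tumor tissue. The list of glucocorticoid-responsive genes was mixed in tumors, with 5 of 12 members above 0, 7 below and a median of -0.17.

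Lists of hepatocyte function mostly had medians near 0. Genes of hepatocyte identity and secreted proteins had a median of -0.04 over 28 members, periportal urea and amino acid genes 0.09, cholesterol synthesis 0.00 and glycolysis 0.11. For cytochrome P450 and detoxification genes the median was 0.06 in tumors and -0.52 in non-tumor tissue, and for fatty acid oxidation 0.20 and -0.31. Without tumor 1347 the tumor medians turned, to -0.06 and -0.14. The paired difference between the tissues had medians of 0.61 and 0.51 for these lists, with no gene past the threshold. Gsta4, a glutathione transferase for lipid peroxidation products, was apart in tumors at 1.63, 2.04 and 1.43 against 2.87, 2.63, 2.24 and 2.10, and Hadha, of mitochondrial beta oxidation, at 1.15, 0.94 and 1.44 against 1.75, 1.88, 1.61 and 1.79. Pnpla3, a lipid droplet lipase linked to steatosis, was at -1.73, -0.29 and -1.86 against 1.0, 1.12, 1.19 and -1.23. Tumor 793 again fell inside the 8-month range, and the difference was 1.81 (SE 0.68), with 2.54 in non-tumor tissue.

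Markers of resident liver macrophages, the Kupffer cells, had higher means at 12 months in 13 of 14 genes, with a median of 0.47. The median level of the list was 2.08, 1.27 and 1.26 in the 8-month tumors 1347, 1287 and 934 against 1.54, 2.54, 2.20 and 2.34 in the 12-month tumors 1109, 638, 702 and 793. Tumor 1109 lay within the 8-month range. Vsig4, a complement receptor of these cells, was at 0.66, 0.61 and 0.09 against 0.58, 2.44, 1.92 and 1.62, a difference of 1.19 (SE 0.45). Clec4f, a lectin specific to Kupffer cells in mouse, was at 1.93, 1.27 and 2.06 against 1.81, 4.21, 2.85 and 3.39, a difference of 1.31 (SE 0.55). In a homogenate, more cells of a type and more RNA per cell cannot be told apart. The list's median was 0.44 in non-tumor tissue, and it stayed between 0.37 and 0.94 in the other settings.

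Neutrophil markers were dim, with medians of -4.02 to -3.65 in the 8-month tumors and -4.23 to -2.94 in the 12-month tumors. They had a median difference of 0.41, but 0.06 after normexp with quantile normalization. Of 12 genes, 4 were higher at an unadjusted p under 0.05, beside 3.3% of all genes, bright and dim together. Of the same 12, 7 were above background in all 7 tumors. Dim genes in general leaned higher, with a median difference of 0.496 among genes above background on 4 of the 7 tumors. Mmp8 and Mmp9, proteases of their granules, did not overlap between the ages, and Mmp9 was above background in 1 of 3 tumors of 8 months and 4 of 4 of 12 months. T and NK cell markers had a median of 0.06, recruited macrophage markers 0.21, endothelial markers -0.06, stellate cell and matrix genes 0.00, cholangiocyte markers 0.01 and B and plasma cell markers -0.17. Medians of the T and NK list ranged from -3.76 in tumor 934 to -0.81 in tumor 1347, both of 8 months, and the list's difference was 0.87 without tumor 1347 and -0.77 without tumor 934. That of recruited macrophage markers was -0.40 without tumor 934. For the interferon response, 15 of 23 genes lay below 0 in tumors, and the list's median was -0.21, but 0.30 without tumor 1347. In non-tumor tissue it was also 0.30.

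Pancreatic acinar markers were near the limit of detection, with list medians of -5.07 to -3.10, and 4 of 8 genes tested were above background in all 7 tumors. Cela3b, an elastase, was at -5.53, -4.49 and -3.49 against -1.92, -2.71, -2.44 and -2.49, a difference of 2.11 (SE 0.48, unadjusted p = 0.002111). The list had the highest median of the 42, at 0.87, but 0.11 after normexp with quantile normalization.

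**Figure D4:**
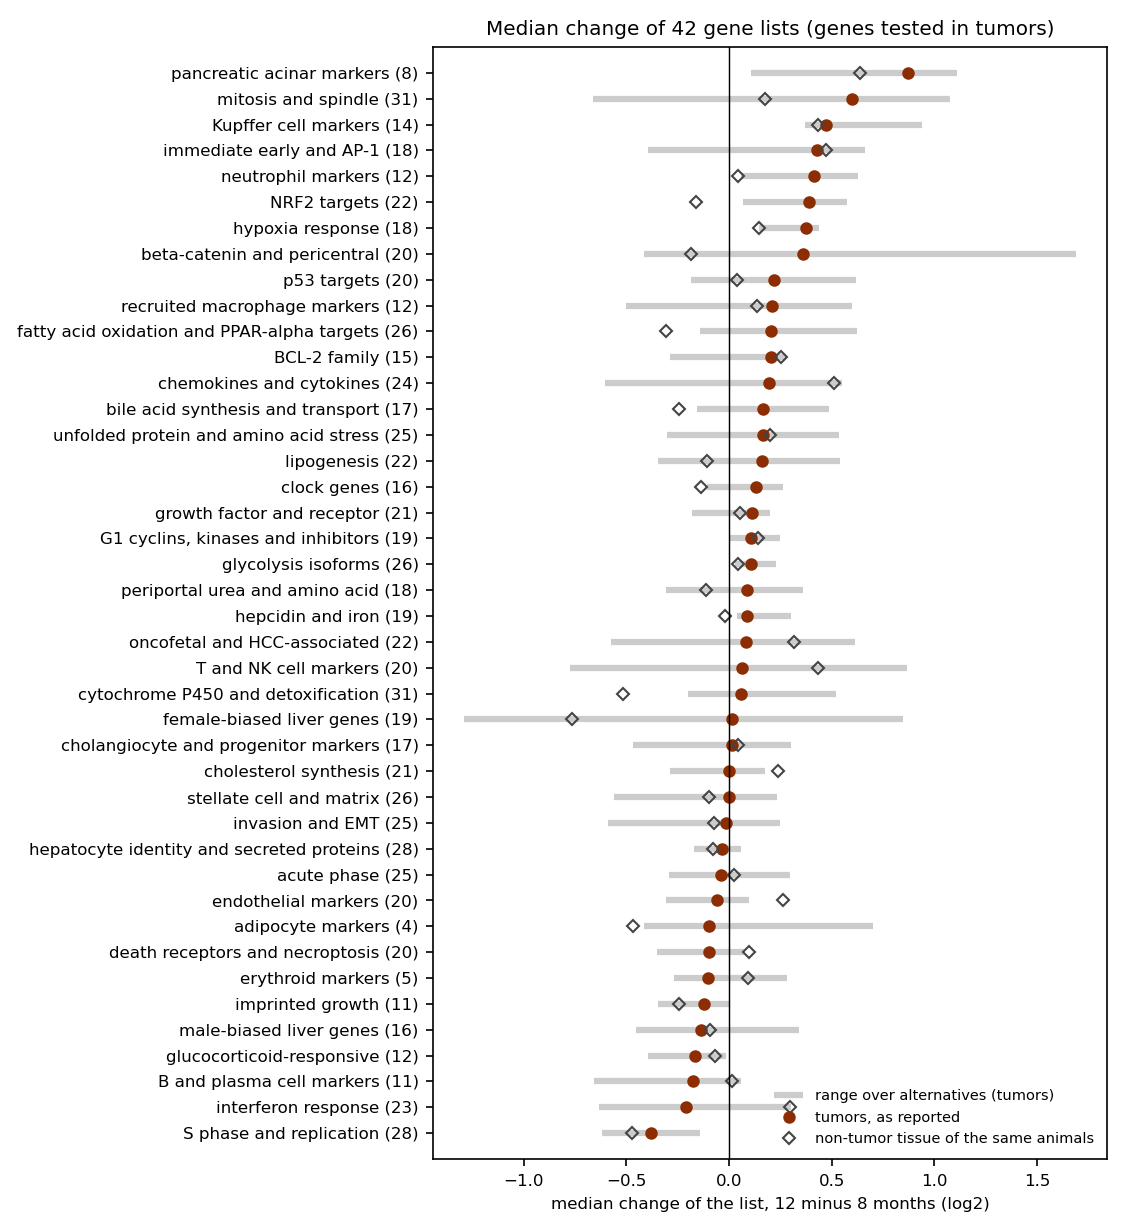
Median difference between 12 and 8 months (log2) of each of 42 gene lists in tumors (filled circles) and non-tumor tissue (open diamonds), with the range over the alternative settings for tumors as a grey bar and the number of genes tested in brackets. The S-phase list lies lowest at -0.38 and the pancreatic acinar list highest at 0.87, and most grey bars cross 0.

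The tumors also differed widely from one another within each age. Among the 10 genes with the largest SD within an age were A1bg, Ddx3y, Eif2s3y, Sult2a2, Hao2, Akr1c18, Xist, Cux2 and Scn8a. Ddx3y and Eif2s3y are Y-linked and Xist is X-linked, and A1bg and Cux2 are known as female-biased in mouse liver. A1bg, for instance, was at 1.36, 3.71, 6.37 and 5.02 in the 4 Xist-positive tumors 1347, 1287, 638 and 793, and at -7.32, -6.40 and -7.93 in the other 3. Sult2a2 belongs to a family of near-identical sulfotransferases that its probe may not separate. Adding the Xist level as a covariate left 0 genes past the threshold. Leaving only the 4 Xist-positive tumors, 2 of each age, also gave 0.

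Genes known from fetal liver and liver cancer varied between tumors within each age. Afp, the gene of alpha-fetoprotein, was at 4.90, 0.48 and 0.65 at 8 months and at 3.77, -1.56, 5.07 and 4.47 at 12 months. Gpc3, a membrane proteoglycan used as a tumor marker, was at 1.22 in tumor 1347 and 0.88 in tumor 702, and between -4.56 and -3.68 in the other 5. Golm1, a Golgi protein released by liver cancers, was highest in the same 2 tumors and in tumor 1287, at 4.38, 5.33 and 3.87. Igf2, a fetal growth factor, was high in a different tumor, 1287, at 4.73, and next in tumor 793 at 1.63, with the other 5 between -4.23 and -1.24. Tff3, a trefoil peptide, was at 5.02, 1.06 and -2.68 against 4.89, -1.04, 4.82 and 2.17. The differences between the ages were 0.93 (SE 1.71) for Afp, -0.65 (SE 1.68) for Gpc3, -0.66 (SE 2.13) for Igf2 and 1.58 (SE 1.96) for Tff3. Each was smaller than its error.

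Beta-catenin targets of the pericentral zone varied in another way. Glul, glutamine synthetase, was at 3.06, 4.65 and 6.04 in tumors 1347, 1287 and 934 and at 4.30, 6.23, 4.66 and 5.74 in tumors 1109, 638, 702 and 793. Axin2, a feedback inhibitor induced by the pathway, was lowest in tumor 1347 at -6.49, against -1.43 and -2.28 in the other tumors of 8 months and -4.06 to -2.59 at 12 months. Over 20 genes of the list the median difference was 0.36, with 16 above 0. It was -0.24 without tumor 1347, 0.03 without tumor 638 and 1.69 among the 4 Xist-positive tumors, so the direction rested on single tumors.

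Tumor and non-tumor samples of an animal were then set side by side to see which levels the pair shared. Afp exceeded its own non-tumor level by the most in tumor 1347 (4.90 against -0.73) and tumor 1109 (3.77 against -0.30), and was lower in tumor 638 (-1.56 against 1.08). The non-tumor sample of animal 702 carried much of the pattern of its tumor, with Gpc3 at 1.29, Golm1 at 4.37, Afp at 3.07 and Spp1, the matrix protein osteopontin, at 7.57. The other 6 non-tumor samples had Gpc3 between -4.28 and -2.47 and Golm1 between 0.14 and 1.67. No value here shows how the non-tumor piece of animal 702 was taken.

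**Figure D5:**
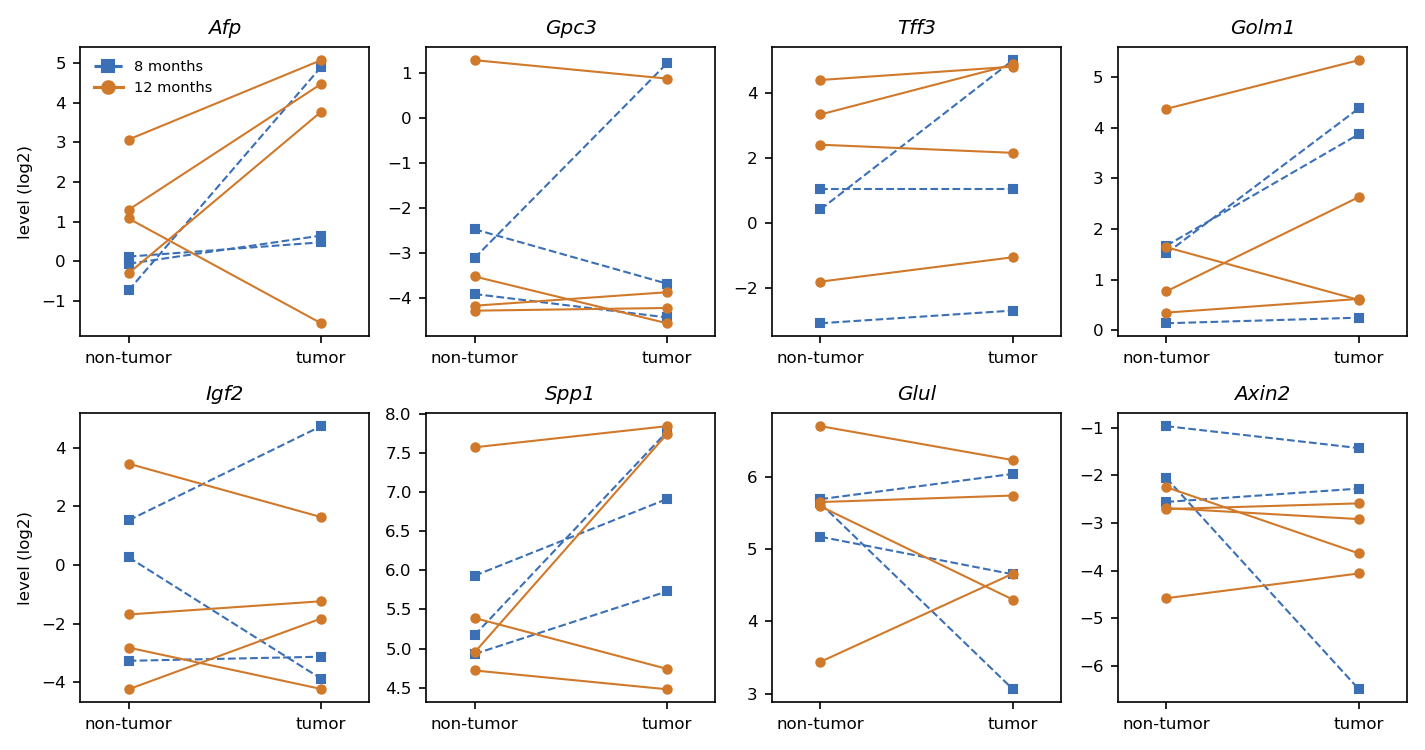
Levels (log2 signal minus the 75th percentile of the array) of 8 genes in the non-tumor and tumor sample of each of the 7 animals, joined by a line (dashed with squares, 8 months; solid with circles, 12 months). Gpc3 is high in tumors 1347 and 702 and in the non-tumor sample of 702, and Axin2 is lowest in tumor 1347 at -6.49.

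The change with age was also compared between the tissues within animals. No gene passed the threshold for the tissue by age term, 0 of 24227 tested (0%), with a smallest adjusted p of 0.376 in limma, and 1476 genes (6.09%) were at an unadjusted p under 0.05. In non-tumor tissue alone there were 0 of 22301 (0%), with 1449 genes (6.5%) at an unadjusted p under 0.05. Slpi, a secreted protease inhibitor, was the brightest gene named for the tissue by age term. It was above its own non-tumor level in the 8-month tumors, at 5.87 against 4.13, 4.70 against 3.98 and 0.55 against 0.07. At 12 months it was below it in all 4 animals, at 2.57 against 2.66, 1.38 against 1.90, 4.28 against 5.89 and 2.14 against 3.60. The term was -1.90 (SE 0.50), with an adjusted p of 0.708 in limma. Adcy5, an adenylyl cyclase, had a term of 1.82 (SE 0.30), and Slitrk3, Dpep2 and 1700001O22Rik had terms of 2.72, 2.14 and 2.49 at levels near background.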

How the data were processed

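RNA of 25 livers or tumors was labelled with Cy3 and read on 1-colour Agilent mouse arrays, 1 sample per array. The authors deposited the scanner's intensity values (processed signal, median signal and background), per the file headers, and a series matrix of log2 values whose ranks follow the uncorrected median signal; how its arrays were normalized is not given in the sources used here. limma is named, with no role, per the submitters' processing notes. Flagged spots were left out, spots of a probe averaged, and each array's 75th percentile subtracted from log2 of its processed signal. Of 41174 probes, 24375 (59.2%) were named through RefSeq accessions, and the other 16799 kept their probe names. Of several probes of a gene, the one brightest on average over the 14 arrays of the 7 animals was used, and the gene was tested when well above background on at least 3 arrays of the comparison. Tests were limma 3.58.1 (R 4.3.3), two-sided, with Benjamini-Hochberg adjustment over all genes tested and a threshold of 0.05; fits were tested on simulated data. With 5 residual degrees of freedom, the number of arrays limits the precision. For the tissue by age term the animal was a fixed block, since tumor and non-tumor samples carry the same animal number: in 5 of 7 animals the tumor's deviations from its group mean correlated best with those of its own non-tumor sample (r = 0.144 to 0.618 within animals), the exceptions being 1347 and 793.

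Named genes were Mcl1, then up to 12 each way for the tumors (here none passed, so the smallest unadjusted p-values among genes without overlap of the ages that every tumor of the higher age detected), 4 each way for the tissue by age term, the 10 with the largest SD within an age (1 of them is not reported here), a panel of liver cancer genes and 4 members of each list. The members and lists were chosen with earlier results of these data known. The normexp alternative used the median signal, since the files used here hold no mean signal. P-values set each difference between the ages against the spread between animals of the same age. Within 1 tissue they do not cover slide differences, which run with age.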

Additional observations from a re-analysis of the deposited data

Results flagged for a closer look

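Of 103 levels examined over the 4 tumors of 12 months, 5 (4.85%) had 1 tumor far from the other 3, and chance gives about 1 in 20. Gpc3 was at 0.88 in tumor 702 and between -4.56 and -3.87 in the other 3. Cyp4f39 was at -2.07 in tumor 638 and between -2.60 and -2.57 in the others. The median level of the unfolded protein and amino acid stress list was 2.70 in tumor 702 against 1.52 to 1.61. That of the acute phase list was 3.82 in tumor 793 against 5.11 to 5.30. That of the interferon response list was 2.13 in tumor 638 against 1.62 to 1.68.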

How the results depend on the processing

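No gene passed the threshold between the ages in tumors under any other setting but 1: in the 14 arrays of both tissues with the animal as a random block, 1 feature passed in tumors, and 5 in non-tumor tissue. In tumors it was the unnamed probe A_51_P272681, singled out after its values were seen, with a difference of 2.93 (SE 0.34, adjusted p = 0.02 in limma). In non-tumor tissue the 5 were that probe, A_52_P168482, Cby2, Olfr686 and Prrg4. Leaving out each animal in turn gave counts of 0 to 0 for the tumors, the non-tumor tissue and the tissue by age term. Without the animal block the tissue by age term also gave 0, with 621 genes at an unadjusted p under 0.05 against 1476 with it. Kcnu1 changed sign under normexp with quantile normalization, to -0.008. The other 490 values of the 24 named genes under other settings kept their sign and call. So did all 113 of the 8 genes named for the tissue by age term. Genes were named for groups that did not overlap, so leaving out tumors or animals could not turn their sign. Several other settings changed only the error and not the difference. The counts are therefore no test of these genes. The 4 Xist-positive tumors alone and the tumors without 638 and 793 were settings chosen after seeing the data. The former moved the median difference of all genes to 0.19 and leaving out tumor 934 moved it to 0.12. Of the 42 list medians, 10 kept 1 sign in every setting. Signal near background limits the dim genes.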
